A study of Homo sapiens with 16 samples.

Results

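The regions described here are the AIB1-bound clusters of the MCFDCIS-named pair of lists, 1 list for parental cells and 1 for D4 cells. The rows of both lists were compared, and a cluster was put in the shared class when it overlapped a cluster of the other list by at least 1 bp. The parental list held 651 clusters and the D4 list held 99. Together they made 685 different clusters of the 897 in the whole series, which were 586 parental-only, 65 shared and 34 D4-only clusters. Every overlapping pair had identical ends, so a shared cluster is the same interval in both lists.

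AIB1, the product of NCOA3, is a steroid receptor coactivator that does not read DNA by itself. It is brought to chromatin by other factors, among them nuclear receptors, AP-1 and TEAD, and it recruits histone acetyltransferases there. NCOA3 is amplified or overexpressed in a share of breast cancers. AIB1-delta4 is an isoform that lacks the start of the protein. The series title names an AIB1D4 cistrome, but the labels give no more of the D4 cells than that name.

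The study applied chromatin immunoprecipitation sequencing (ChIP-seq) with an AIB1 antibody to 2 lines. These were MCF10A, a human mammary epithelial line that forms no tumours, and MCFDCIS, a derivative of it that grows lesions like ductal carcinoma in situ. Each line also had D4 cells. All 4 groups grew in the same medium with 5% horse serum, EGF, hydrocortisone, cholera toxin and insulin, so a glucocorticoid was present throughout. Each group had 3 ChIP samples and 1 input among the 16 samples, but each is represented by 1 pooled list with no value per replicate. Nothing in the labels says whether D4 cells are 1 clone or a pool. The line in a file's name and the line of the samples whose descriptions cite it are crossed (parental or D4 status is not), so the lists are called by their names only. A list of regions carries no expression, so the labelled cell type could not be checked against markers. Sequencing depth is unknown, and with 1 list a group no value has a replicate error. Intervals cover the number of clusters only, and each test below compares lists of regions, not cultures.

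Most of the parental clusters were missing from the D4 list, and most of the D4 list was parental. The 65 shared clusters were 9.98% of the parental list (exact 95% interval 7.79 to 12.5) and 65.7% of the D4 list (55.4 to 74.9). The parental-only clusters covered 363.8 kb, the shared ones 49.3 kb and the D4-only ones 21.5 kb. Median widths were 60, 110 and 60 bp in that order, on a grid whose smallest cluster was 10 bp wide. Of the 34 D4-only clusters, 0 lay within 1 kb of a parental cluster, 9 within 10 kb and 23 within 100 kb, with a median distance of 34.3 kb.

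The sequences below are shown because they carry the letters of a glucocorticoid response element (GRE), the paired half-sites bound by the glucocorticoid receptor, at clusters present in both lists. The motif searched was GNACA and TGTNC with 3 bases between them, on both strands, in the central 500 bp of each cluster. It was found in 8 of the 65 shared clusters. For each of these the match nearest to the centre of the cluster is printed on the plus strand of GRCh37, 5′ to 3′, with the match in capitals, after the gene with the nearest protein-coding transcription start site (TSS).
PER1, chr17:8057763-8057807: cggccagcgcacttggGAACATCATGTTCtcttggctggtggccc
IRX4, chr5:1962869-1962913: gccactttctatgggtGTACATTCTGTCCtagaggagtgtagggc
TFCP2L1, chr2:121955204-121955248: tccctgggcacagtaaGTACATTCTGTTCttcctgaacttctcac
TPRG1, chr3:188665889-188665933: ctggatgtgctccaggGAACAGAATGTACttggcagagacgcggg
DUSP10, chr1:222065254-222065298: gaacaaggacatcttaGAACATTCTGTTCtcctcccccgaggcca
ELOB, chr16:2819889-2819933: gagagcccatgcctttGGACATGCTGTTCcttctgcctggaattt
FKBP5, chr6:35569844-35569888: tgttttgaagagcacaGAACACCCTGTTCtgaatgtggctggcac
CASZ1, chr1:10878855-10878899: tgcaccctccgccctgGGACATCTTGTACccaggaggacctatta

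These 8 matches lay between 10 and 60 bp from the centres of their clusters. PER1, a clock gene, and FKBP5, a co-chaperone of steroid receptors, are textbook glucocorticoid targets. DUSP10 encodes a phosphatase of stress-activated MAP kinases. IRX4, CASZ1 and TFCP2L1 encode transcription factors. The match listed under ELOB lies in intron 12 of SRRM2, which encodes a splicing factor. Among the 34 D4-only clusters 0 held the motif (exact interval 0 to 10.3%).

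Matches to the AP-1 motif, named after the factor made of FOS and JUN dimers, were present at few D4-only clusters. The letters searched were TGANTCA, with any base at N, so a match need not be a site that these dimers bind. Of the matches below, those under MGAT1 and ACTN4 have A at N and the one under RAD51B has G. The 3 D4-only clusters with a match are printed in the same way.
MGAT1, chr5:180229245-180229283: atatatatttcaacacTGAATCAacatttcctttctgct
ACTN4, chr19:39145754-39145792: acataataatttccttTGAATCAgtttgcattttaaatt
RAD51B, chr14:69044662-69044700: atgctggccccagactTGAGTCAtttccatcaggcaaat

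These matches lay 158, 67 and 100 bp from the cluster centres, farther than any of the 8 GRE matches above. MGAT1 encodes an enzyme of N-glycan synthesis, ACTN4 an actin crosslinker and RAD51B a protein of homologous recombination.

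AP-1 matches were common in parental-only clusters and rare in D4-only ones. They were in 226 of 586 parental-only clusters (38.6%, exact interval 34.6 to 42.6), 18 of 65 shared clusters (27.7%, 17.3 to 40.2) and 3 of 34 D4-only clusters (8.82%, 1.86 to 23.7). The share was 14.7% in windows of the same length across the genome and 9.22% in all promoters. Windows 5 kb to either side of the clusters held it at 15.6%, 15.4% and 14.7% in the 3 classes. D4-only clusters thus lay 29.7 percentage points below parental-only ones (difference -29.7, interval -40.1 to -19.4; Fisher's exact test, two-sided, adjusted p = 0.00488 over 24 tests). Away from promoters the shares were 40.2% of 527 parental-only and 8.70% of 23 D4-only clusters. Motif tests were not repeated without the dense stretches described below, which held 12 of 34 D4-only and 125 of 586 parental-only clusters.

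The AP-1 share also moved with the score inside the parental list. From the lowest to the highest quartile of the authors' deposited score it was 25.8%, 35.0%, 39.5% and 49.7%. Against the 153 parental-only clusters of the lowest quartile alone, of which 26.1% held AP-1, the D4-only share was 17.3 points lower, with an adjusted p of 0.324 by Fisher's exact test. This comparison was chosen after seeing the data. By the same exact test the call was also lost when whole clusters were searched (difference -20.4, adjusted p = 0.0610) and among clusters above the median score of their list (difference -46.7, adjusted p = 0.0595).

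SP/KLF matches (GGGCGG), which GC-rich promoters often hold, were most frequent in shared clusters. They were in 23 of 65 shared clusters (35.4%), 101 of 586 parental-only clusters (17.2%) and 3 of 34 D4-only clusters (8.82%), against 6.36% of genome windows and 62.1% of all promoters. The shared share was 18.1 points above the parental-only one (interval 6.13 to 30.2, adjusted p = 0.0149, Fisher's exact test). Among promoter clusters alone it was 56.5% of 23 shared, 50.8% of 59 parental-only and 18.2% of 11 D4-only clusters. By the same exact test the call was lost without promoter clusters (10.3 points, adjusted p = 0.410), with the central 200 bp (9.07 points, adjusted p = 0.123), with whole clusters (5.66 points, adjusted p = 0.664) and above the median scores (9.96 points, adjusted p = 0.538).

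GRE matches were in 50 of 586 parental-only clusters (8.53%) and in 8 of 65 shared ones (12.3%), against 0.540% of genome windows and 0.599% of all promoters. By Fisher's exact test neither the shared class (adjusted p = 0.532) nor the D4-only class (0.279) differed from the parental-only class past the threshold. In the parental list the GRE share was 3.68% in the lowest score quartile and 19.6% in the highest. Of the 20 parental clusters with the highest scores 8 held it.

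TEAD matches (GGAATG) were in 38.1% of parental-only, 29.2% of shared and 23.5% of D4-only clusters, and RUNX matches (TGTGGTT) in 17.4%, 7.69% and 2.94%. None of these differences passed the threshold, with adjusted p between 0.237 and 0.427 by Fisher's exact test. The estrogen response element (half-sites GGTCA and TGACC with 3 bases between) was in 0 clusters of any class. The 2 differences given above were the only ones past the threshold among the 24 tests of 12 motifs. The other 6 motifs were ETS (CCGGAAG), NF-Y (AGCCAAT), CRE (TGACG followed directly by TCA), E-box (CACGTG), YY1 (AAGATGG) and FOX (TGTTTAC).

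**Figure D1:**
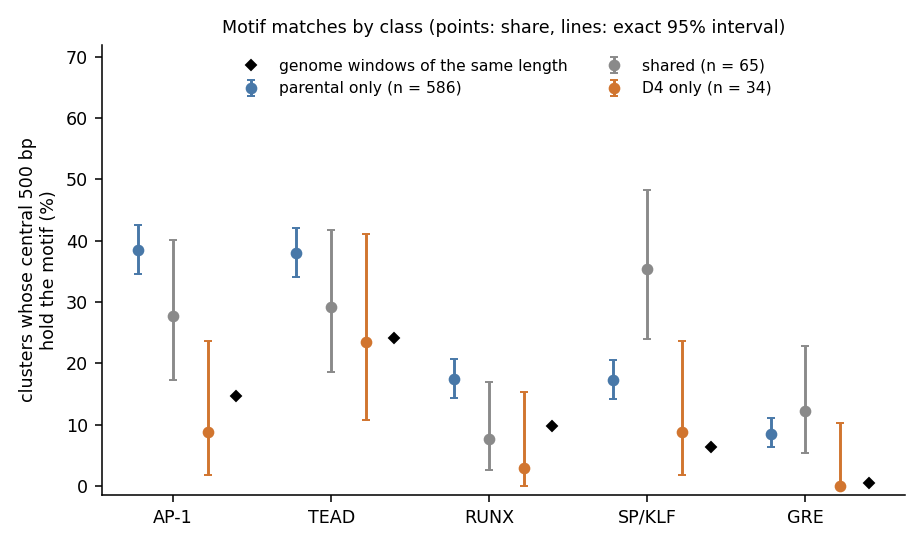
Share of clusters (y axis, percent) whose central 500 bp hold each of 5 motifs (x axis), by class, with exact 95% intervals as lines and genome windows as black diamonds. AP-1 is at 38.6% in parental-only and 8.82% in D4-only clusters, SP/KLF is highest in shared clusters at 35.4%, and GRE is at 0 in D4-only clusters.

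Clusters found in D4 cells lay at promoters more often than clusters absent from the D4 list. A promoter here means 1 kb or less to the TSS of a protein-coding gene. Promoter clusters were 59 of 586 parental-only clusters (10.1%, exact interval 7.75 to 12.8), 23 of 65 shared clusters (35.4%, 23.9 to 48.2) and 11 of 34 D4-only clusters (32.4%, 17.4 to 50.5). The shared class was 25.3 points above the parental-only class (interval 13.4 to 37.2, adjusted p = 7.56e-07) and the D4-only class 22.3 points above it (6.37 to 38.2, adjusted p = 0.0006, Fisher's exact test, two-sided, over 2 tests).

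Promoter clusters of the parental-only class had a median parental score of 14.8, against 20.5 for the others. The promoter share was 17.2%, 17.8%, 6.17% and 9.20% from the lowest to the highest quartile of the parental score. Against parental-only clusters of the lowest quartile alone, of which 22 of 153 (14.4%) were promoter clusters, Fisher's exact test gave differences of 21.0 points for shared clusters (adjusted p = 0.00170) and 18.0 points for D4-only clusters (adjusted p = 0.0227). Among clusters above the median score of their own list, 2 of 10 D4-only and 15 of 285 parental-only clusters were promoter clusters. The difference was 14.7 points with an adjusted p of 0.107 by Fisher's exact test.

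Outside promoters, parental-only clusters were mostly intergenic (295, 50.3%) or intronic (215, 36.7%), and 17 were exonic. The shared class had 24 intergenic, 15 intronic and 3 exonic clusters, and the D4-only class had 10, 13 and 0. The median distance to the nearest TSS was 25.3 kb for parental-only, 11.8 kb for shared and 7.11 kb for D4-only clusters. GC content of the central 500 bp had medians of 46.2%, 49.4% and 47.4%.

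**Figure D2:**
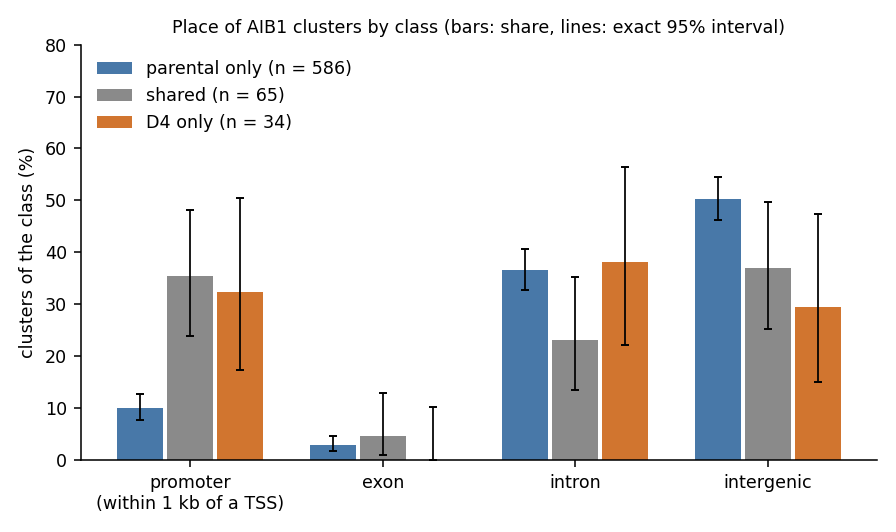
Share of clusters (y axis, percent) at promoters, in exons, in introns and between genes (x axis) for each class, with exact 95% intervals as lines. The promoter share is 10.1% in parental-only clusters, 35.4% in shared and 32.4% in D4-only ones.

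The promoter pattern of the D4-only class was not seen under the other line name. In the MCF10A-named pair 3 of 71 D4-only clusters (4.23%) and 43 of 423 parental-only clusters (10.2%) were promoter clusters, a difference of -5.94 points. The odds ratios differed between the line names (difference of differences 28.2 points, Zelen's exact test, two-sided, p = 0.000439). With TSSs of all gene types that difference was 18.7 points (p = 0.0978, Zelen's exact test). Above the median scores it was 21.6 points (p = 0.0520, Zelen's exact test), so the call was lost in both. Zelen's test treats the line names as independent, but their tables share regions. Of the 586 MCFDCIS-named parental-only clusters, 274 were also in the MCF10A-named parental list. The p-values do not account for this overlap. In the shared class 10 of 67 MCF10A-named clusters (14.9%) were promoter clusters, against 35.4% of the MCFDCIS-named ones. The line names were not tested against each other for that class.

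The shared promoter clusters with the highest D4 scores were those of HTD2 and PSMA3. The cluster at chr3:58293201-58293860 covered the TSS of HTD2, a mitochondrial fatty acid synthesis gene, 1.16 kb from the TSS of RPP14, a subunit of RNase P. Its score was 33.5 in the parental list and 25.5 in the D4 list, where it ranked first together with a cluster near GOLGA6D. The cluster in intron 1 of PSMA3, which encodes a subunit of the 20S proteasome core, had scores of 26.9 (parental) and 23.5 (D4). Neither was in an MCF10A-named list.

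ABLIM3, an actin-binding LIM protein, had scores of 32.6 and 9.46, parental first. SREBF1, a regulator of lipid synthesis, had clusters at 2 of its promoters, one with scores of 22.9 and 10.4 and one with 7.21 and 7.11. The ABLIM3 cluster and the second SREBF1 cluster were in all 4 lists of the series.

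The remaining shared promoters spanned the whole range of the parental score. TPRG1 was highest, with 106.0 in the parental and 7.89 in the D4 list, followed by S100A2, a calcium-binding protein of basal epithelia, with 86.6 and 8.43, and PSAP, the precursor of lysosomal saposins, with 44.2 and 10.8. VGLL4, a cofactor that competes with YAP for TEAD, had 26.5 and 10.5. Others were C19orf73 with PPFIA3, ZNF581, AKT1S1, DRG2, MYNN, SPATA24, LARS1, KCNN4, CSNK1G3, ZNF460, HNRNPL and ERCC1, with parental scores from 7.02 to 23.6 and D4 scores from 8.18 to 11.0.

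Promoter clusters can be as small as the grid allows, so the stretch around such clusters is shown, with the 10 bp of the cluster in capitals on the plus strand of GRCh37. Stretches that touch an exon are not printed. The first are shared clusters.
PSMA3, chr14:58711776-58711835: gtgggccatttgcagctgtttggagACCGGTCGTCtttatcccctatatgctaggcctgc
MYNN, chr3:169491326-169491385: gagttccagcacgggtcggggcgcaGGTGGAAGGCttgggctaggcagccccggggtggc
VGLL4, chr3:11609726-11609785: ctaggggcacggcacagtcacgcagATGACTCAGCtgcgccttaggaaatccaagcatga

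The VGLL4 and PSMA3 windows of 500 bp held an AP-1 match and the MYNN window held SP/KLF and TEAD matches. The next are D4-only clusters.
SAR1B, chr5:133967926-133967985: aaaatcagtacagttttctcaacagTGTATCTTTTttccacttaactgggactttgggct
MGAT1, chr5:180229076-180229135: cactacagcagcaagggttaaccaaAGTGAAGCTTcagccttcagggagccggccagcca
ZNF574, chr19:42579826-42579885: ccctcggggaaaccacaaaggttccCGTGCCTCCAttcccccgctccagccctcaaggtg
CD55, chr1:207494626-207494685: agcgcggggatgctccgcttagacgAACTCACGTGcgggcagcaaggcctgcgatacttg

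The SAR1B window held 0 of the 12 motifs, and the CD55 window held an E-box and a FOX match.

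The 11 D4-only promoter clusters had D4 scores from 7.11 to 10.0, a median of 8.43. SAR1B, a GTPase of COPII vesicles, was highest at 10.0, and its cluster was also in the MCF10A-named parental list at 7.02. It was the only one of the 11 in either MCF10A-named list. DDX41, an RNA helicase, had 9.97, MGAT1 had 9.46 and ZNF574, a zinc finger gene, 9.31. The cluster at chr5:149828101-149828510 covered the TSS of RPS14, a protein of the small ribosomal subunit, at 9.27. PDE4DIP, a scaffold protein of the centrosome and Golgi, had 8.03 in a cluster 8760 bp wide. The cluster between DRC3, a ciliary protein, and TOM1L2, a trafficking adaptor, had 7.86. RAI1, a transcriptional regulator, had 7.26, CD55, a complement inhibitor, 7.11, and POU5F1B, a retrogene of POU5F1, 8.43.

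The highest D4-only scores were outside promoters. The first was at chr19:46117401-46117460 in intron 17 of EML2, a microtubule-associated protein, with 13.8, rank 7 of the 99. A cluster 1.58 kb from the TSS of LRATD2 had 13.1, one 25.6 kb from LBR, the lamin B receptor, 10.8, one near NOTCH2NLC 10.5 and one 19.5 kb from FGF1 10.1. The NOTCH2NLC cluster had 1 further near-identical match, so reads from a near copy could not be told apart there. None of these 5 was in an MCF10A-named list.

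The shared share was larger in the higher quartiles of the parental score. From the lowest to the highest 6.13%, 9.20%, 10.5% and 14.1% were in the D4 list, and 7 of the highest 20 were. Of the shared clusters 40 of 65 (61.5%) lay above the parental median score of 20.1, against 285 of 586 parental-only clusters (48.6%). This difference of 12.9 points did not pass the threshold (Fisher's exact test, two-sided, p = 0.0508). It did without promoter clusters (20.2 points, p = 0.0152, Fisher's exact test) and without clusters that have a second close match in the genome (16.4 points, p = 0.0191). Without the dense stretches described below it was 5.46 points (p = 0.478, Fisher's exact test).

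In the D4 list the shared clusters were 11 of 25 in the lowest quartile of the D4 score, 64.0% and 66.7% in the middle ones and 88.0% in the highest, and 18 of the highest 20 were shared. The median D4 score was 10.0 (range 7.11 to 25.5) for shared and 8.98 (7.11 to 13.8) for D4-only clusters. Across the 65 shared clusters the ranks of both scores showed almost no relation (Spearman rho 0.04, a description across clusters of the same 2 lists). The number was higher in the parental list for 61 of the 65, but whether scores can be compared across the lists is not known.

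**Figure D3:**
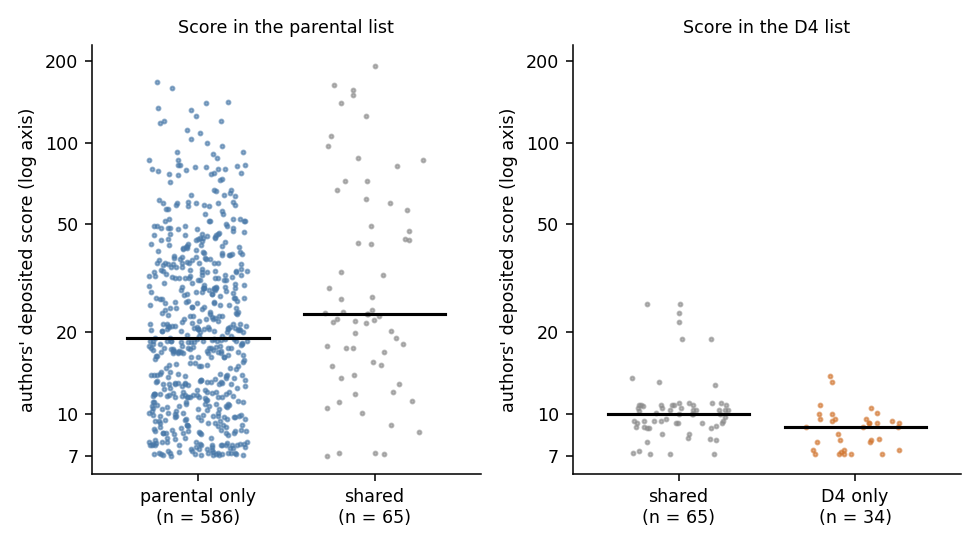
The authors' deposited score of each cluster (y axis, log scale), in the parental list for parental-only and shared clusters and in the D4 list for shared and D4-only clusters, with medians as black lines. Medians are 19.1 and 23.3 in the parental list and 10.0 and 8.98 in the D4 list, and the 6 highest D4 scores are all of shared clusters.

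The highest parental scores among shared clusters were all at clusters also listed for the MCF10A-named parental cells. The PER1 cluster at chr17:8057651-8057860, 1.81 kb from a PER1 TSS, had 191.5, the highest of the 651, and in the D4 list 8.10, rank 78 of 99. It had 86.6 in the MCF10A-named parental list. An intronic cluster of SH3TC2 had 162.5 and 10.8, a cluster 54.5 kb from CDKN2AIPNL 156.7 and 10.8, one 66.6 kb from ETAA1 149.7 and 8.97, and one 75.5 kb from IRX4 140.3 and 19.0, parental before D4. Beside HTD2 and PSMA3, the highest D4 scores were at GOLGA6D (25.5), in an intron of ABLIM1 (21.9), and near IRX4 and LONRF1 (19.0 each). The GOLGA6D cluster had 3 further near-identical matches in the genome and the LONRF1 cluster 5. Such matches were found for 7 of 65 shared, 2 of 34 D4-only and 10 of 586 parental-only clusters. Without them the promoter differences were 29.6 points for shared and 24.3 points for D4-only clusters, and both calls were kept.

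Parental-only clusters reached nearly as high. An intronic cluster of MCF2L2 had a parental score of 166.8, one in intron 2 of RAI1 158.7, one 13.3 kb from the TSS of CYP1B1, a xenobiotic and estrogen-metabolizing enzyme, 140.8, one 4.44 kb from the chemokine gene CCL20 139.9 and one 62.8 kb from MYC 134.4. All 5 were in the MCF10A-named parental list too. The parental-only promoter clusters with the highest scores were at CYP1B1 (86.1), FKBP5 (79.9), DHRS3, a retinal reductase (61.4), KLK6, a secreted protease (54.5) and AXL, a receptor tyrosine kinase (45.0).

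D4-only clusters were less often found in the parental list of the other line name. By the rule they are absent from the MCFDCIS-named parental list, whereas parental-only clusters are present in it. A comparison with another parental list is therefore not independent of how the classes were made. The MCF10A-named parental list held 274 of 586 parental-only clusters (46.8%), 33 of 65 shared clusters (50.8%) and 6 of 34 D4-only clusters (17.6%, exact interval 6.76 to 34.5). The D4-only class differed from the parental-only class by -29.1 points (interval -42.5 to -15.7, adjusted p = 0.00441 over 4 tests, Fisher's exact test) and the shared class by 4.01 points (adjusted p = 0.801). Of the parental-only clusters of the lowest score quartile 30.1% were in that list. Against these the difference was -12.4 points for D4-only clusters (adjusted p = 0.377, Fisher's exact test). For shared clusters it was 20.7 points (adjusted p = 0.0214, Fisher's exact test), so both calls changed with the scores compared. Only the parental-only class was cut by score. Shared clusters of all parental scores (median 23.3) thus stood against low-scoring ones. By the same exact test the D4-only call was also lost without promoter clusters (-25.9 points, adjusted p = 0.0710) and without 10 bp clusters (-30.5 points, adjusted p = 0.0580). The MCF10A-named D4 list held 8.19% of parental-only, 10.8% of shared and 5.88% of D4-only clusters, with adjusted p of 0.801 for shared and 1 for D4-only clusters.

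The classes were spread unevenly over the chromosomes. D4-only clusters lay on 8 chromosomes, with 7 each on chromosomes 1 and 5 and 6 on chromosome 19. Chromosome 8 held 79 parental-only, 2 shared and 5 D4-only clusters. In the stretch from 127 to 130 Mb of that chromosome, which includes MYC, 61 parental clusters stood beside 5 D4 clusters, and 0 were shared. In other dense stretches, 73 to 75 Mb of chromosome 10 and 17 to 19 Mb of chromosome 17, 4 of 41 and 4 of 31 parental clusters were shared, and 3 and 4 clusters were D4-only. Dense stretches held 125 of 586 parental-only, 8 of 65 shared and 12 of 34 D4-only clusters. Copy number in these cells was not tested.

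**Figure D4:**
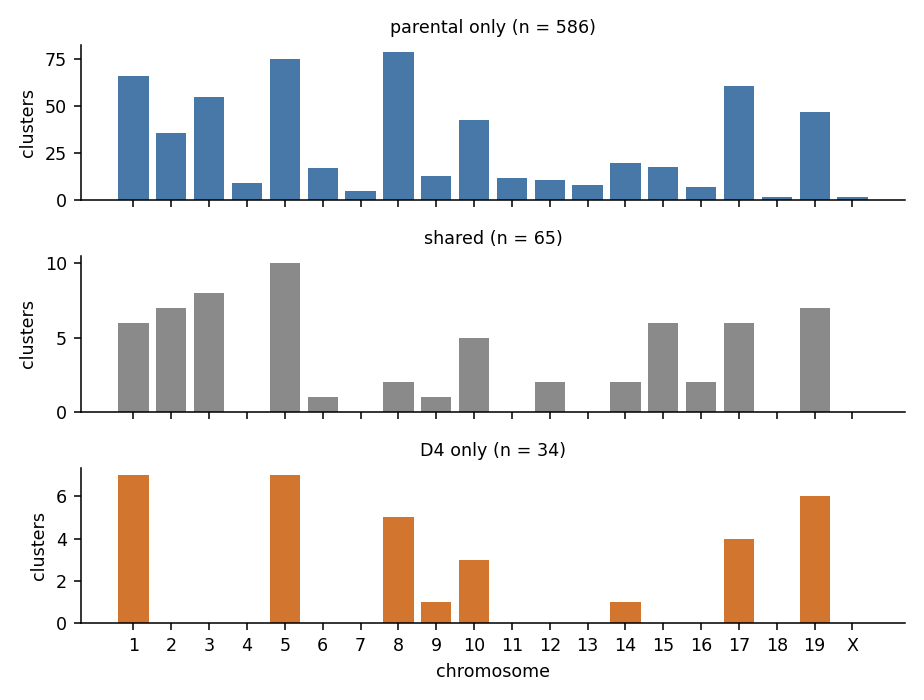
Number of clusters (y axis, with its own scale in each panel) on each chromosome (x axis) for the 3 classes. Chromosome 8 holds 79 parental-only but 2 shared clusters, and D4-only clusters lie on 8 chromosomes.

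Of 18547 protein-coding genes on the 20 chromosomes that hold clusters, 1067 (5.75%) had a parental-only cluster within 100 kb of a TSS, 228 (1.23%) a shared one and 94 (0.507%) a D4-only one. Of the 94 genes, 29 had no parental cluster in that window and 65 also had a parental one. NCOA3 lies on a chromosome without clusters and was not analysed here. In 18 gene lists, 69 of 469 different members had a parental-only, 17 a shared and 4 a D4-only cluster. The counts below are descriptions, since neighbouring members can share 1 cluster. At 1.23% and 0.507% of all genes, 0 shared or D4-only members in a list cannot be read as a loss. The lists and their members were also chosen with earlier results of these data known.

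Glucocorticoid targets had 9 of 25 members (36%) with a parental-only cluster, 3 (12%) with a shared one and 0 with a D4-only one. The shares of all genes were 5.75%, 1.23% and 0.507%. Within 25 kb the counts of members were 5, 1 and 0. The shared clusters, printed above, were those of PER1 (1.81 kb from a TSS), FKBP5 and TFCP2L1. The TFCP2L1 cluster lay 87.5 kb from the TSS, with scores of 125.2 and 10.4. The FKBP5 cluster lay in intron 5, 86.9 kb from the TSS, with scores of 47.3 and 10.0. FKBP5 thus had both kinds, as its promoter cluster with a GRE match, 0.4 kb from the TSS at chr6:35695901-35695960, was parental only. The nearest other parental-only members were SCNN1A, a sodium channel subunit (0.772 kb, score 40.1), MT2A, a metallothionein (1.14 kb, 36.0), and KLF9, a transcription factor (5.43 kb, 29.2).

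Basal keratin and myoepithelial genes had 9 of 23 members with a parental-only cluster (39.1%, against 5.75% of all genes), resting on 5 clusters. They had 0 members with another kind, against 1.23% (shared) and 0.507% (D4-only) of all genes. KRT17, KRT16 and KRT14 shared the cluster at the KRT17 promoter (score 41.0), which had 3 further near-identical matches. KRT6A (1.41 kb) shared its cluster with KRT5 and KRT6B. EGFR and MAPK feedback genes had 9 of 29 members (31.0%) with a parental-only cluster and 1 (3.45%) with a shared one. The nearest parental-only clusters were at HRAS (0.376 kb), MAP2K1 (3.95 kb), EREG (9.49 kb) and TGFA (29.0 kb). The shared one was that of PHLDA1, at 11.2 kb with scores of 56.6 and 8.03. Integrin, laminin and matrix genes had 6 of 30 parental-only members (20%), among them ITGB4 (20.6 kb), ITGA3 (27.5 kb) and ITGB6 (28.4 kb). PLAUR (3.33% of the list) was shared at 97.8 kb. TGF-beta and EMT genes had 4 of 25 parental-only members (16%), TGFBI, TGFBR2, TGFB1 and LTBP2, and 0 of the other kinds. IGF and insulin signalling genes had 1 of 25 (4%, against 5.75% of all genes), IGFBP4.

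AP-1 and immediate early genes had 6 of 25 members with a parental-only cluster (24%, against 5.75% of all genes). Among them were FOSB and MYC with clusters over a TSS and FOSL1 and IER5 within 25 kb. FOSB had a shared cluster at 8.08 kb, at the ERCC1 promoter (4% of the list, against 1.23% of all genes). MYC had a D4-only cluster at 77.8 kb with a D4 score of 7.39 (4%, against 0.507%). Of 30 YAP-TEAD genes AXL (0.55 kb) and AMOTL2 (19.4 kb) had parental-only clusters (6.67%, against 5.75% of all genes). VGLL4 had a shared one (3.33%, against 1.23% of all genes). Nuclear receptor genes had 4 of 33 parental-only members (12.1%). Among them were NR3C1, which encodes the glucocorticoid receptor (over a TSS), RXRA (0.86 kb) and ESR1 (20.6 kb). RXRA, the common dimer partner of many nuclear receptors, also had a shared cluster (3.03% of the list) at 7.38 kb with scores of 10.5 and 10.0. Coactivators and corepressors had 1 of 24 parental-only members (4.17%, against 5.75% of all genes), PPARGC1B at 17.3 kb.

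Actin and adhesion genes were the list with the most shared and D4-only members. Its members were chosen with earlier results of these data known, so their shares are no test of enrichment. Parental-only clusters were near 5 of 26 members, shared ones near 4 (15.4%) and D4-only ones near 2 (7.69%), against 5.75%, 1.23% and 0.507% of all genes. Beside ABLIM3, shared clusters were in introns of ACTN1, an actin crosslinker (9.13 and 7.28), and ABLIM1 (29.1 and 21.9). The D4-only clusters were in intron 1 of ACTN4 (8.97), printed above, and at the DDX41 promoter, 19.2 kb from PDLIM7. Both genes also had a parental-only cluster, at 6.87 kb for ACTN4 and at 0.122 kb for PDLIM7, and those of ACTN4 lay 1.59 kb apart. SYNPO (0.396 kb) and DIAPH1 (3.12 kb) had parental-only clusters.

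Proteasome genes had 3 of 30 parental-only members (10.0%, against 5.75% of all genes), which were PSMD8, PSMC5 and PSMD4, and PSMA3 shared (3.33%, against 1.23% of all genes). Ribosomal protein genes had 3 of 37 parental-only members (8.11%), RPL13A and RPL18 among them, and RPS14 D4-only (2.70%, against 0.507% of all genes). RNA processing and transcription machinery genes had 2 of 30 parental-only members (SRSF1 and U2AF2, 6.67%) and 2 shared (RPP14 and U2AF2, 6.67%). E2F and cell cycle genes had 1 of 24 parental-only members (4.17%, against 5.75% of all genes), CCND3 at 2.76 kb.

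Luminal genes had 3 of 19 parental-only members (15.8%), ESR1, ELF3 and KRT19. KRT7 (5.26% of the list) was shared at 47.2 kb with scores of 82.3 and 9.46. KRT19 was counted only through the KRT17 promoter cluster, 96.4 kb away, which also counted for KRT17, KRT16 and KRT14. Of the lists for cell types outside the epithelium, blood cell genes had 2 of 24 parental-only members (8.33%, against 5.75% of all genes), CD247 and CD14. Neuronal genes had 2 of 21 (9.52%), among them SLC17A7 through the RPL13A promoter cluster 45.6 kb away. CAMK2A was shared at 18.1 kb with scores of 7.21 and 7.11 (4.76% of the list, against 1.23% of all genes).

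**Figure D5:**
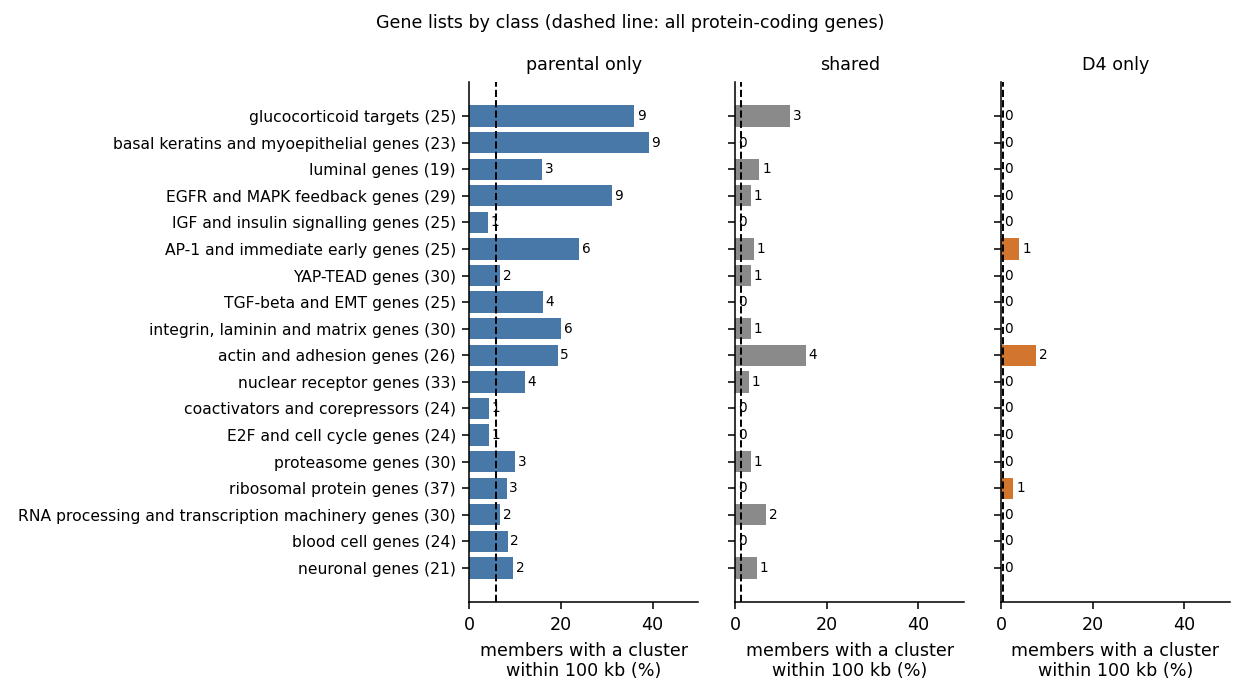
Share of each list's members (x axis, percent, with the count at the bar's end) with a parental-only, shared or D4-only cluster within 100 kb, for the 18 lists (y axis, number of members in brackets), with the share of all protein-coding genes dashed. Glucocorticoid targets have 9, 3 and 0 members and actin and adhesion genes 5, 4 and 2.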

How the data were processed

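The authors deposited 1 list of clusters per group, with a position and a score per cluster. The score is the authors' deposited score, with no definition in the files, and it was used to rank and filter within a list. The lowest score was between 7.00 and 7.11 in all 4 lists. Samples were normalized to input, per the series' design text, on hg19 (GRCh37), per the submitters' processing notes. Aligner, caller and replicate pooling were not given in the sources used here. Clusters from either list can lack signal just under the authors' limit in the other, so a class does not show absence of AIB1.

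Clusters were compared with GRCh37 and GENCODE release 44 lifted to it, with intron numbers from canonical transcripts. Classes were compared by Fisher's exact test, two-sided, with a threshold of 0.05 and Benjamini-Hochberg adjustment (2 promoter tests, 24 motif tests, 4 tests of other lists), and line names by Zelen's exact test. Intervals of shares are exact (Clopper-Pearson) whereas differences have normal-approximation intervals. Dense stretches are adjoining bins of 1 Mb with at least 20 rows over all 4 lists of the series. A region present in several lists was counted once for each list. Second matches were sought for the central 100 bp with minimap2 2.31 (95% identity or more along 90 bp or more), with Python 3.11.15, SciPy 1.17.1 and pysam 0.24.0 for the rest. The functions were tested on simulated data. From the gene lists 18 members were left out, not matched or on chromosomes without clusters.

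Named were the 5 highest scores per class, all shared and D4-only promoter clusters, the 5 highest parental-only promoter clusters, list members with shared or D4-only clusters, and up to 4 nearest parental-only members per list. The other named clusters, such as those printed for a motif, were chosen after their values were seen. Some genes that this rule names are not reported here. Members and lists were chosen with earlier results of these data known.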

Additional observations from a re-analysis of the deposited data

Results flagged for a closer look

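The difference in promoter share between D4-only and parental-only clusters was 28.2 percentage points larger under the MCFDCIS name than under the MCF10A name. It is listed because the odds ratios behind it differed between line names (Zelen's exact test, two-sided, p = 0.000439). The difference in points itself was not tested. The D4-only shares behind it were 11 of 34 and 3 of 71. Zelen's test treats the line names as independent, although 274 of the 586 MCFDCIS-named parental-only clusters were also in the MCF10A-named parental list. The p-value does not account for this overlap. Which cell line each name stands for cannot be told apart from these files.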

How the results depend on the processing

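Under the alternatives tried, 58 recomputed values that answer a comparison kept their direction and side of the threshold or, for counts, stayed within 1.5 times. The others follow. When each list was cut to clusters above its median score and the classes were formed anew, counts moved to 302 parental-only and 23 shared clusters. Without clusters of 10 bp the D4-only count moved to 18. The tests above the median scores kept the original classes, with 285 parental-only, 40 shared and 10 D4-only clusters. Members with a parental-only cluster fell to 40 within 25 kb. The promoter difference of D4-only clusters was 14.7 points above the median scores (adjusted p = 0.107, Fisher's exact test). That between line names was 18.7 points with all gene types (p = 0.0978, Zelen's exact test) and 21.6 above the median scores (p = 0.0520). Of 24 motif tests 1 was called with the central 200 bp, 1 without promoters, 1 against the lowest score quartile, 0 with whole clusters and 0 above the median scores. The SP/KLF call of shared clusters was lost in all of these but the lowest-quartile comparison. Differences of sign were 1.55 (AP-1, shared, lowest quartile), and 1.58 with whole clusters and 3.09 with the lowest quartile (TEAD, shared), all with adjusted p near 1.

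Presence of D4-only clusters in the MCF10A-named parental list differed by -25.9 points without promoters, -30.5 without 10 bp clusters and -12.4 against the lowest quartile. For shared clusters the values were -0.58 without 10 bp clusters and 20.7 against the lowest quartile. Presence in the MCF10A-named D4 list changed sign at 0.35 (D4-only, without promoters) and -0.42 (shared, without 10 bp clusters). The upper-half score difference passed at 16.4 points without second matches and 20.2 without promoters. It was 5.46 points without dense stretches (p = 0.478, Fisher's exact test).

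The lowest-quartile comparison was chosen after seeing the data. It cut only the parental-only class and kept shared clusters of every score. The cause of these changes was not tested, although filters leave fewer clusters. No paired analysis was possible because each group has 1 pooled list, and replicates could not be left out for the same reason. Depth is unknown, and 34 D4-only clusters give wide intervals.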
